A study of Anas platyrhynchos with 6 samples.

Results

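GDF9, ZP2 and ZAR1L, a trio of genes that are active in the oocyte, were followed across 6 ovary libraries from laying ducks. They were taken by accession: XM_013104015.1 for GDF9, XM_005018563.2 for ZP2 and XM_005013785.2 for ZAR1L, which makes 3 of the 41952 transcripts in each table. Each gene had 1 transcript there, and all 3 passed the filter on low values, with 19790 transcripts tested in all. The ovaries came from Jinding ducks (Anas platyrhynchos) of a half-sib family, 340 days old and raised alike. High layers had a laying rate above 99% (3 libraries) and low layers a rate below 85% (3 libraries). The libraries are called high 1 to 3 and low 1 to 3 here, and these numbers pair nothing across the groups. Nothing in the labels says that each library is a different duck, so p-values cover only the spread between these samples, which may in part be technical. RNA came from sampled ovaries, not from sorted cells: a library with fewer oocytes and one with less RNA per oocyte cannot be told apart.

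The oocyte grows inside a follicle, wrapped in granulosa cells and a coat of glycoproteins. GDF9 is a secreted growth factor of the TGF-beta family, made by the oocyte, that acts on the surrounding granulosa cells; mouse females that lack it have follicles that stop growing early. ZP2 is a glycoprotein of the egg coat, which is the zona pellucida of mammals and the perivitelline layer of birds. ZAR1L is a relative of ZAR1, the zygote arrest protein, and in frogs and mice such proteins bind and store maternal messenger RNA until the egg needs it. The trio thus stands for the growth signal, the coat and the RNA store of the egg.

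All 3 genes were well expressed in every library, and none differed between high and low layers beyond the spread of the libraries. Levels are in FPKM (fragment counts scaled to transcript length and sequencing depth), a unit inferred from the values. ZP2 was the most abundant, with 467, 337 and 288 FPKM in high 1, 2 and 3, against 517, 362 and 179 FPKM in low 1, 2 and 3. The low layers held both the highest and the lowest library, so the high layers lay inside their range. By its mean of 358 FPKM over 6 libraries, ZP2 ranked 197th of all transcripts in the tables, above 99.5% of them.

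ZAR1L had 67.3, 77.0 and 61.9 FPKM in high 1, 2 and 3, against 97.5, 67.4 and 46.0 FPKM in low 1, 2 and 3. Here too low 1 was the highest and low 3 the lowest library. Its mean of 69.5 FPKM placed it above 96.3% of the transcripts.

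GDF9 had 62.4, 58.7 and 55.2 FPKM in the high ovaries, against 74.3, 83.8 and 49.4 FPKM in the low ovaries. Low 1 and low 2 stood above all high libraries and low 3 stood below them. Its mean of 63.9 FPKM placed it above 95.9% of the transcripts.

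**Figure D1:**
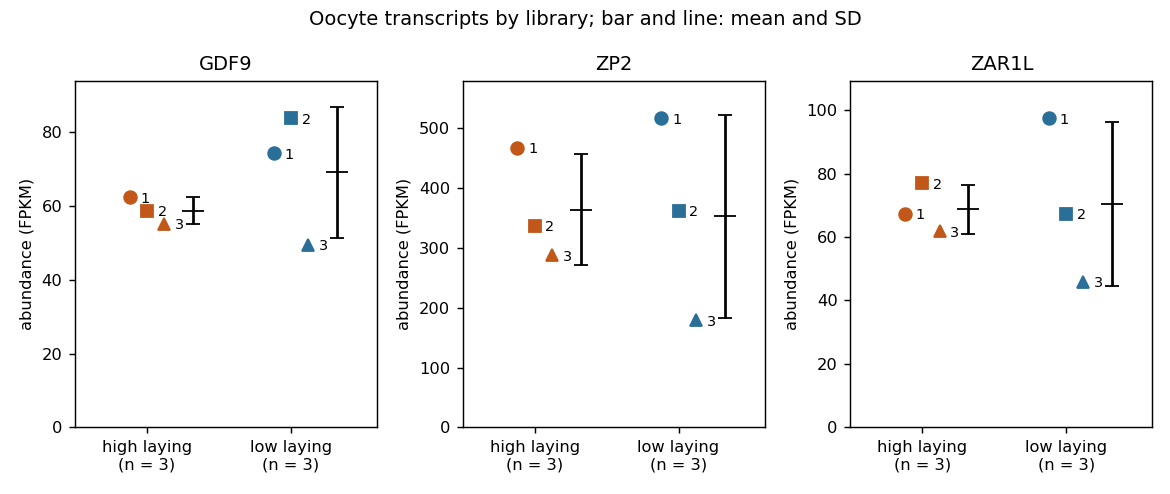
Abundance in FPKM of GDF9, ZP2 and ZAR1L (panels) in each library, by laying group; points are libraries with their number, and the bar with its line is the group mean with its SD (n = 3). In every panel the high libraries lie inside the range of the low ones, and low 3 is the lowest point.

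The group means lay close together. ZP2 averaged 364 ± 92.9 FPKM in high and 353 ± 169 FPKM in low ovaries (SD, n = 3 each), and its log2 difference was 0.14 (SE 0.385, 95% interval -0.75 to 1.04). ZAR1L averaged 68.7 ± 7.65 FPKM in high and 70.3 ± 25.9 FPKM in low ovaries, and its log2 difference was 0.027 (SE 0.264, 95% interval -0.59 to 0.64). GDF9 averaged 58.7 ± 3.60 FPKM in high and 69.1 ± 17.7 FPKM in low ovaries, and its log2 difference was -0.20 (SE 0.209, 95% interval -0.69 to 0.29). Differences are high minus low on the log2(FPKM + 1) scale, where changes of weakly expressed transcripts look smaller than they are. The intervals of GDF9 and ZAR1L exclude a doubling in either direction on that scale, and the interval of ZP2 just reaches it. For ZAR1L the difference in FPKM ran the other way from the log2 difference.

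In the limma-trend fit over all 19790 tested transcripts the adjusted p was 0.9998 for each member (Benjamini-Hochberg, two-sided). That fit called 0 of the 3 members, where 0.00505% of all tested transcripts, 1 in number, were called. At an unadjusted p under 0.05 there were 0 members and 3.51% of all tested transcripts. Two-sided exact permutation tests over the 20 ways to divide 6 libraries into 3 and 3 gave p = 0.4 for GDF9, 0.9 for ZP2 and 1 for ZAR1L, where 0.1 is the smallest p they can give. The groups overlapped for all 3 members, and they did not overlap for 8.54% of tested transcripts.

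The direction of the small differences of ZP2 and ZAR1L rested on single libraries and on the scaling, and for GDF9 the size depended on which library was left out. With quantile normalization the log2 difference was -0.091 for ZP2 and -0.041 for ZAR1L, and with equal library sums it was -0.075 for ZAR1L. Without low 3 the log2 difference was -0.42 for GDF9, -0.28 for ZP2 and -0.24 for ZAR1L, and none was called. Without low 1 it was -0.13 for GDF9, 0.48 for ZP2 and 0.29 for ZAR1L. The GDF9 difference kept its sign in every fit, and was -0.046 without low 2, the library in which it was highest. Weighting each library by an estimate of its reliability, limma called GDF9, at -0.49 (adjusted p = 0.0402), as it did 11.6% of all tested transcripts. In that fit low 2 alone carried 97.1% of the weight of its group, and the estimation of the weights stopped before it converged.

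**Figure D2:**
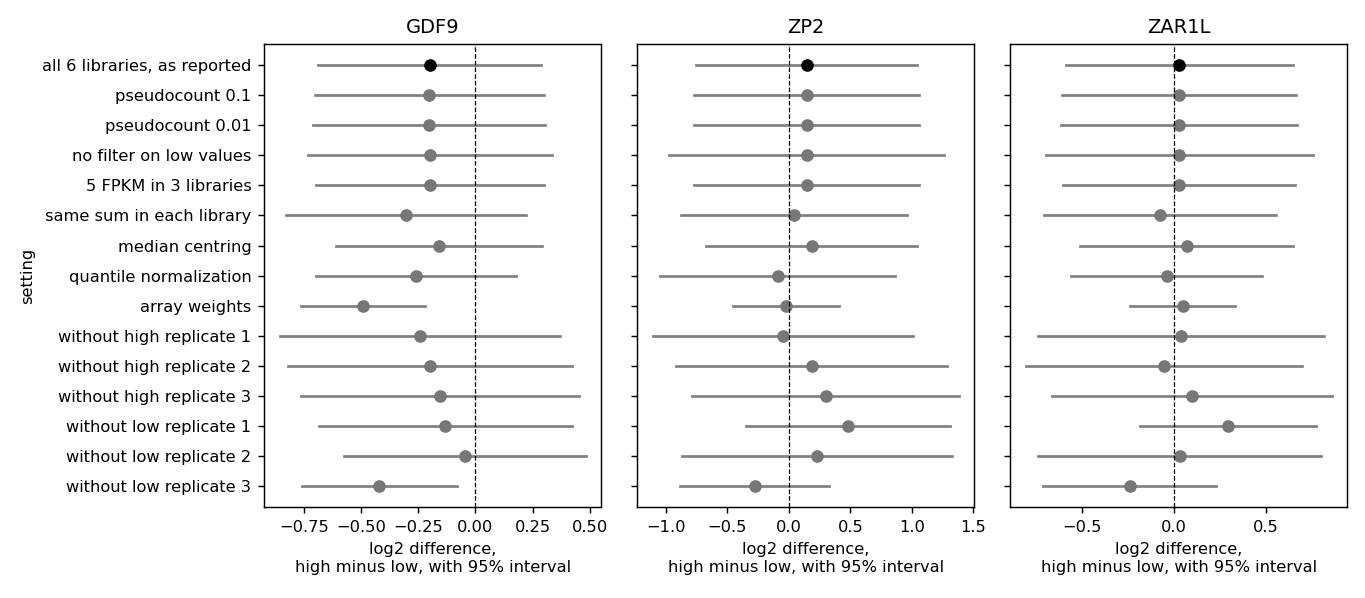
The log2 difference, high minus low, of each member (panels) under each setting (rows), with points for the estimate and lines for the 95% interval. All estimates lie within 0.5 of 0; the interval of GDF9 leaves 0 out with array weights and without low replicate 3.

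What differed more was how far the libraries of a group lay apart. The highest over the lowest library gave a ratio of 1.62 in high and 2.89 in low ovaries for ZP2, of 1.24 in high and 2.12 in low ovaries for ZAR1L, and of 1.13 in high and 1.70 in low ovaries for GDF9. The SD of log2(FPKM + 1) was 0.356 in high and 0.776 in low ovaries for ZP2. It was 0.157 in high and 0.534 in low ovaries for ZAR1L, and 0.0870 in high and 0.393 in low ovaries for GDF9. The larger SD was in the low group for 3 of 3 members, and also for 67.7% of all tested transcripts. The low libraries thus lay further apart for most tested transcripts, the members among them. All these transcripts were measured in the same libraries, and the difference in spread was not tested.

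The libraries fell in a similar order for the 3 genes, with differences in the middle. From high to low, ZP2 ran low 1, high 1, low 2, high 2, high 3, low 3. ZAR1L ran low 1, high 2, low 2, high 1, high 3, low 3, and GDF9 ran low 2, low 1, high 1, high 2, high 3, low 3. High 3 and low 3 held the last places in each. Low 3 was the lowest library for 3 of 3 members and for 29.2% of tested transcripts. Low 1 was the highest for ZP2 and ZAR1L and for 26.9% of tested transcripts, and low 2 was the highest for GDF9 and for 15.4% of them. Neighbours in the middle of these orders were close: for ZAR1L, low 2 and high 1 differed by less than 1 FPKM.

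Which pair moved together most closely depended on the measure. Over the 6 libraries Pearson's r was highest for ZP2 and ZAR1L, and Spearman's rho was highest for GDF9 and ZP2. For ZP2 and ZAR1L r of log2(FPKM + 1) was 0.88 (exact permutation p = 0.0389, adjusted over the 3 pairs 0.117) and rho 0.77 (exact permutation p = 0.103, adjusted 0.136). For GDF9 and ZP2 r was 0.71 (exact permutation p = 0.104, adjusted 0.156) and rho 0.83 (exact permutation p = 0.0583, adjusted 0.136). For GDF9 and ZAR1L r was 0.64 (exact permutation p = 0.163, adjusted 0.163) and rho 0.71 (exact permutation p = 0.136, adjusted 0.136). All 3 pairs were positive, and none passed 0.05 after adjustment over the pairs (two-sided).

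The values moved with the libraries left out, in both directions. Without low 1 and low 3, the libraries farthest from the median of ZP2, r of ZP2 and ZAR1L was 0.19 over the 4 libraries left, so the value of 0.88 rests on those libraries; leaving them out also narrows the range of ZP2. Without low 1 and low 2, the libraries farthest from the median of GDF9, r was 0.995 for GDF9 and ZP2 and 0.87 for GDF9 and ZAR1L over the 4 libraries left. Those 4 include low 3, the lowest library for all 3 genes. Without low 2 alone, r was 0.94 for GDF9 and ZP2, 0.94 for GDF9 and ZAR1L and 0.88 for ZP2 and ZAR1L. Without low 3 alone, r was 0.46 for GDF9 and ZP2, 0.35 for GDF9 and ZAR1L and 0.68 for ZP2 and ZAR1L. With each group's mean subtracted, r was 0.84, 0.72 and 0.88 in the same order. No correlation was computed within a group of 3 libraries.

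Correlations of this size were also reached by 3.9% to 23.1% of the other tested transcripts, depending on the pair and the gene. ZAR1L's r with ZP2 was reached by 3.9% of the other tested transcripts, and ZP2's r with ZAR1L by 6.26%. ZP2's r with GDF9 was reached by 9.86% and GDF9's r with ZP2 by 15.3%. ZAR1L's r with GDF9 was reached by 14.0%, and GDF9's r with ZAR1L by 23.1%.

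**Figure D3:**
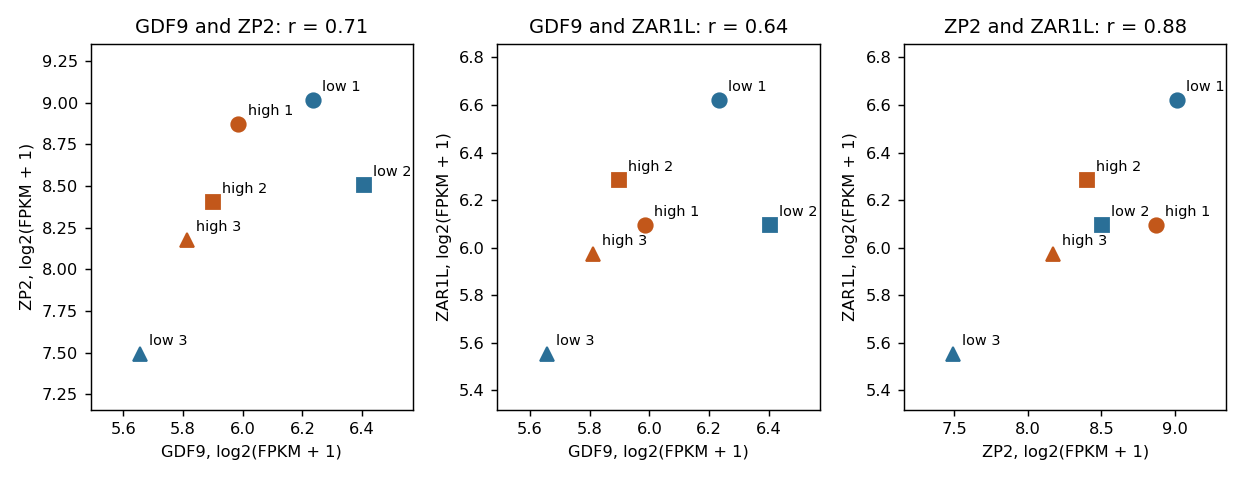
Each panel sets 2 members against each other, in log2(FPKM + 1), with 1 point for each library. In all 3 panels low 3 sits at the lower left; low 2 stands to the right of the others in the panels with GDF9 on the horizontal axis, and r is 0.71, 0.64 and 0.88.

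Ratios within a library show where the genes parted. FPKM is per transcript length, so the genes can be set against each other. GDF9 over ZP2 was 0.133, 0.174 and 0.192 in high 1, 2 and 3, against 0.144, 0.231 and 0.276 in low 1, 2 and 3. The ratio was lowest in high 1 and low 1, the libraries richest in ZP2, and highest in low 3, where ZP2 was furthest below its mean. GDF9 over ZAR1L was 0.926, 0.762 and 0.892 in the high ovaries, against 0.762, 1.24 and 1.07 in the low ovaries, and only low 2 and low 3 held more GDF9 than ZAR1L. ZP2 over ZAR1L was 6.94, 4.38 and 4.65 in the high ovaries, against 5.30, 5.37 and 3.89 in the low ovaries, with high 1 above all others.

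None of the ratios separated the laying groups. The mean log2 ratio of GDF9 over ZP2 was -2.60 in high and -2.26 in low ovaries, a difference of -0.35 (exact permutation p = 0.4, two-sided). For GDF9 over ZAR1L it was -0.22 in high and 0.0084 in low ovaries, a difference of -0.23 (exact permutation p = 0.5). For ZP2 over ZAR1L it was 2.38 in high and 2.26 in low ovaries, a difference of 0.12 (exact permutation p = 0.8). Over all 6 libraries the SD of the log2 ratio of ZP2 over ZAR1L was 0.290, below the SD of log2 FPKM of either gene, 0.547 for ZP2 and 0.358 for ZAR1L. The ratio of GDF9 over ZP2 had an SD of 0.401, between those of GDF9 (0.281) and ZP2. The ratio of GDF9 over ZAR1L had an SD of 0.278, close to that of GDF9.

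**Figure D4:**
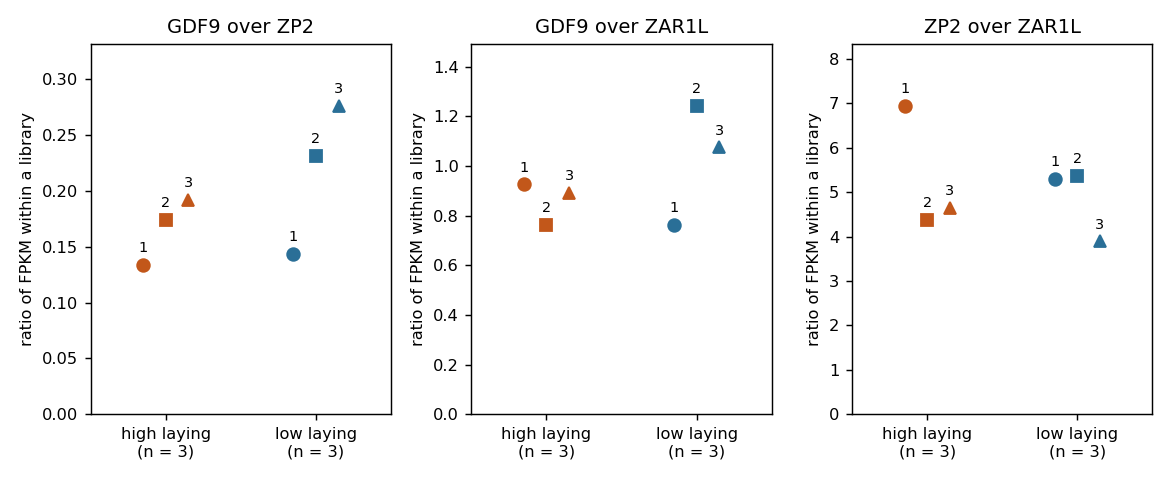
Ratio of FPKM of 2 members within each library (points, numbered by library), by laying group, each axis starting at 0. The groups overlap in each panel; low 3 has the highest ratio of GDF9 over ZP2 at 0.276, low 2 the highest of GDF9 over ZAR1L at 1.24 and high 1 the highest of ZP2 over ZAR1L at 6.94.

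Many of the other tested oocyte and germ cell genes, though not all, were also lowest in low 3 and highest in low 1. In the oocyte lists (egg coat, growth factors, maternal RNA, germ cell RNA pathways, meiosis) 15 genes were matched by name and tested, 12 of them not members. Tested were 1 of 6 egg coat genes, 1 of 9 growth factors and 4 of 31 genes of maternal RNA and egg arrest. Of the germ cell RNA pathways 7 of 25 genes were tested, and of meiosis 2 of 21. The egg coat and growth factor lists gave only ZP2 and GDF9, so the 12 come from the other lists. Among these 12, low 3 was the lowest library for 8 (29.2% of all tested transcripts), low 1 the highest for 7 (26.9% of all) and low 2 the highest for 4 (15.4% of all). TDRD5, TDRD6, SYCE3 and MLH3 were lowest in a high library. Limma called 0 of the 12 (0.00505% of all tested), and 0 had an unadjusted p under 0.05 (3.51% of all). With array weights it called 3, namely TDRD5, TDRD6 and SYCE3 (11.6% of all). The log2 difference was above 0 for 4 and below 0 for 8, with a median of -0.14, against -0.003 over all tested transcripts. These lists were chosen with results of these data known.

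The 3 other tested genes of maternal RNA and egg arrest, a list of 31 that includes ZAR1L, resembled ZP2 and ZAR1L in their highest and lowest libraries. BTG4, which in mice recruits the deadenylase that clears maternal RNA, had 312, 260.3 and 236 FPKM in high 1, 2 and 3, against 355, 260.2 and 105 FPKM in low 1, 2 and 3. MOS, the kinase that holds the egg in meiotic arrest, had 67.0, 91.8 and 61.9 FPKM in the high ovaries, against 94.3, 62.6 and 35.5 FPKM in the low ovaries. H1-8, the linker histone of the oocyte, had 35.7, 40.4 and 38.3 FPKM in the high ovaries, against 46.4, 37.9 and 20.3 FPKM in the low ovaries. Low 1 was highest and low 3 lowest for each, and r over the 6 libraries was 0.96, 0.83 and 0.85 with ZP2 and 0.89, 0.95 and 0.91 with ZAR1L in that order of genes. With GDF9 it was 0.67, 0.52 and 0.64. For comparison, an r of at least 0.88 was reached with ZP2 by 3.9% of the other tested transcripts and with ZAR1L by 6.26%. The extremes of these genes lay in low 1 and low 3, the libraries on which r of ZP2 and ZAR1L rested. Their r without those libraries was not computed. Another, weaker H1-8 transcript was highest in high 2, at 3.40 FPKM, and lowest in low 3, at 2.03 FPKM.

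Genes of the piRNA pathway, which silences mobile elements in germ cells, were divided. MAEL had 48.4, 56.3 and 50.6 FPKM in the high ovaries, against 85.4, 69.4 and 33.4 FPKM in the low ovaries, with an r of 0.86 with GDF9, 0.80 with ZP2 and 0.91 with ZAR1L. TDRD6 had 14.9, 21.8 and 19.0 FPKM in the high ovaries, against 31.5, 39.2 and 17.3 FPKM in the low ovaries, highest in low 2 like GDF9. Its r was 0.85 with GDF9, 0.35 with ZP2 and 0.51 with ZAR1L. TDRD5 was also highest in low 2, at 14.99 FPKM, with an r of 0.84 with GDF9 and 0.37 with ZP2. The Argonaute gene PIWIL1 and the trimmer PNLDC1 were highest in low 1, at 22.8 and 15.1 FPKM, and lowest in low 3, at 10.1 and 2.55 FPKM. MOV10L1, a helicase, followed the same extremes between 4.25 and 1.17 FPKM in its most abundant transcript. Another tested MOV10L1 transcript was highest in low 2, at 2.22 FPKM, and lowest in high 2, at 1.26 FPKM. HENMT1, which methylates piRNA ends, was highest in high 1 at 1.74 FPKM and lowest in low 3 at 0.265 FPKM.

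The 2 tested meiosis genes were highest in low 2, like GDF9. SYCE3, of the synaptonemal complex, had 5.36 FPKM in low 2 and between 1.36 and 2.46 FPKM elsewhere, with an r of 0.62 with GDF9, 0.03 with ZP2 and 0.04 with ZAR1L. MLH3, which acts in crossover formation, had 3.35 FPKM in low 2 and an r of 0.44 with GDF9, -0.11 with ZP2 and 0.17 with ZAR1L.

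**Figure D5:**
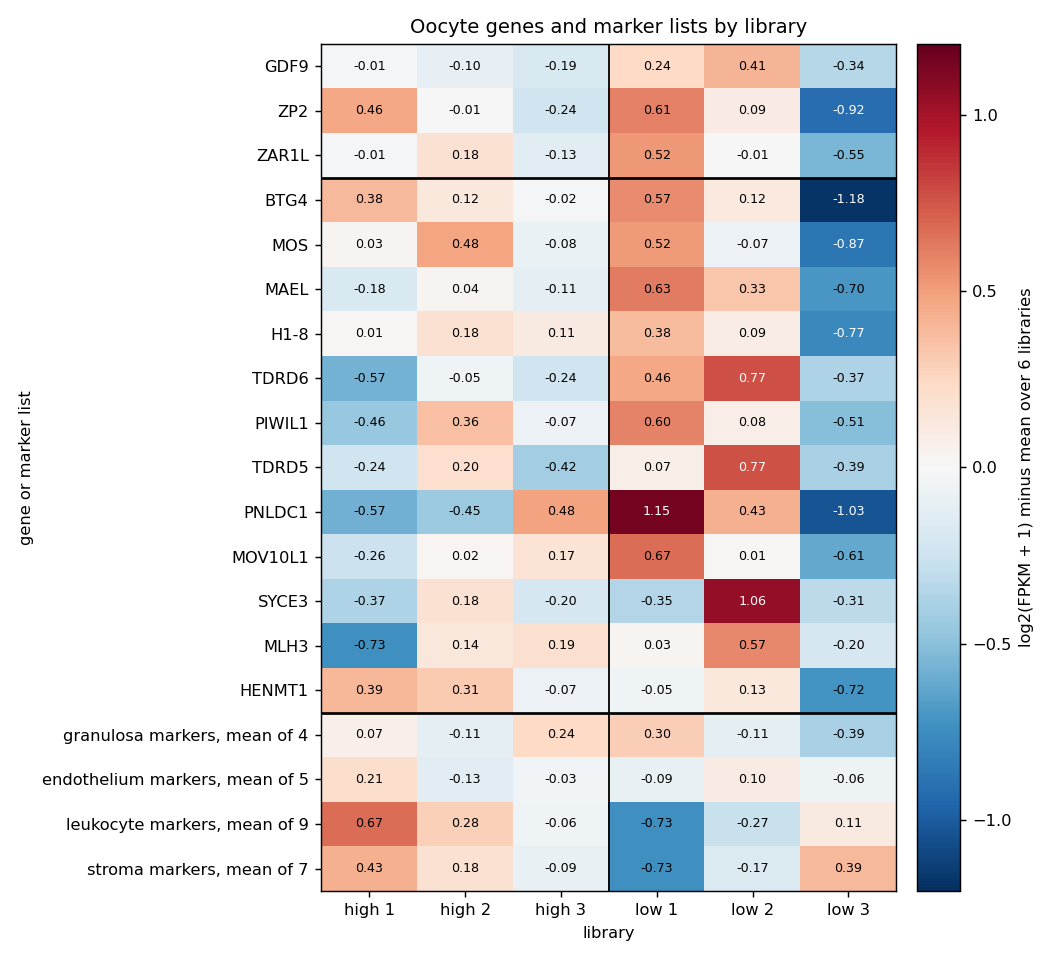
Deviation of log2(FPKM + 1) from the mean over 6 libraries, by library (columns), for the 3 members (top), the other 12 tested oocyte genes (middle) and the mean of the marker lists of 4 other cell types (bottom). Low 3 is below the mean in all 15 gene rows; in low 1 the leukocyte and stroma rows are at -0.73 while ZP2 is at 0.61.

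The 5 tested genes of receptors and SMADs, through which GDF9 and related factors signal, had an r with GDF9 between -0.03 and 0.69. BMPR2, the type II receptor through which GDF9 acts in mammals, had 15.5, 10.9 and 9.35 FPKM in high 1, 2 and 3, against 16.0, 19.9 and 23.0 FPKM in low 1, 2 and 3. Every high library was below every low one, and the groups did not overlap for 8.54% of all tested transcripts either. The log2 difference of -0.69 (SE 0.233) was not called by limma (adjusted p = 0.9998, unadjusted p = 0.0193). BMPR2 was highest in low 3, where GDF9 was lowest, and its r with GDF9 was 0.21. SMAD3, which carries the GDF9 signal to the nucleus, varied little, between 18.3 and 22.4 FPKM, and SMAD5, of the bone morphogenetic protein branch, between 38.4 and 40.1 FPKM. SMAD3 had an r of -0.03 with GDF9, and SMAD5 one of 0.51. BMPR1B, a type I receptor, had 1.11, 0.962 and 1.49 FPKM in the high ovaries, against 1.35, 1.80 and 1.03 FPKM in the low ovaries, highest in low 2 like GDF9, with an r of 0.69. ACVR2A, a type II receptor for activin, was also highest in low 2, at 19.4 FPKM, with an r of 0.06. Of these 5 genes limma called 0 (0.00505% of all tested transcripts), and 1 had an unadjusted p under 0.05 (3.51% of all). With array weights BMPR2 was called (11.6% of all).

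Of 10 genes listed as responding to GDF9 in the cumulus of mammals, 3 were tested. Limma called 0 of them (0.00505% of all tested transcripts), and 0 had an unadjusted p under 0.05 (3.51% of all). With array weights it called 0 (11.6% of all). HAS2, the enzyme that makes hyaluronan, had 6.30, 3.16 and 4.48 FPKM in the high ovaries, against 3.11, 4.89 and 3.29 FPKM in the low ovaries. FST, which binds activin, had 28.7, 38.7 and 38.6 FPKM in the high ovaries, against 43.2, 28.9 and 33.2 FPKM in the low ovaries. TNFAIP6, a hyaluronan-binding protein, had 1.39, 0.397 and 0.970 FPKM in the high ovaries, against 0.908, 1.63 and 1.46 FPKM in the low ovaries.

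Markers of other ovarian cells moved with the libraries too. In the sums below each gene counts through its most abundant tested transcript alone. Summed over 7 tested of 13 stroma genes (DCN, LUM, DPT and others), levels ran from 1232 to 1735 FPKM in high and from 874 to 1670 FPKM in low ovaries, lowest in low 1. DCN, the most abundant, made up 753 FPKM of the sum in high 1 and 403 FPKM in low 1. Over 9 tested of 18 leukocyte genes the sums ran from 444 to 1617 FPKM in high and from 191 to 476 FPKM in low ovaries, again lowest in low 1. JCHAIN, the joining chain of antibodies, made up 1348 FPKM of the sum in high 1; without it the sums ran from 162 to 269 FPKM in high and from 95.6 to 187 FPKM in low ovaries, still lowest in low 1. Over 4 tested of 14 granulosa genes (FSHR, CYP19A1, FST and GJA1) they ran from 165 to 200.2 FPKM in high and from 132 to 225 FPKM in low ovaries, highest in low 1 and lowest in low 3. GJA1, a gap junction gene, was the most abundant of the 4, and 2 of 4 were highest in low 1 and 2 of 4 lowest in low 3. With ZP2 r was 0.77 for GJA1, 0.80 for CYP19A1, 0.09 for FST and -0.17 for FSHR. With ZAR1L it was 0.81, 0.66, 0.50 and -0.34 in the same order, and with GDF9 it was 0.30, 0.40, -0.15 and 0.28. Over 5 tested of 11 endothelial genes the sums ran from 119.9 to 147 FPKM in high and from 91.1 to 124 FPKM in low ovaries. The r of these genes with GDF9 was 0.93 for EMCN, 0.38 for TEK, -0.29 for PECAM1, -0.32 for CDH5 and -0.54 for VWF. With ZP2 r was 0.81 for EMCN, 0.28 for TEK, 0.05 for PECAM1, -0.37 for CDH5 and -0.59 for VWF. With ZAR1L it was 0.71, 0.03, -0.33, -0.60 and -0.74 in the same order. EMCN was the weakest of the 5, between 0.443 and 2.06 FPKM. The groups did not overlap for PECAM1 in its most abundant transcript (8.54% of all tested transcripts). Limma called 0 of the 5 (0.00505% of all). For the 7 stroma genes r ran from -0.86 to -0.23 with GDF9 and from -0.85 to -0.22 with ZAR1L. For the 9 leukocyte genes it ran from -0.80 to -0.12 with GDF9 and from -0.66 to 0.09 with ZAR1L. Limma called 0 of the 7 stroma genes (0.00505% of all), and with array weights 1, DPT (11.6% of all). No tested marker was at 0 in any library. No theca gene had a name in the tables, and of 11 epithelial and oviduct genes 2 were tested, with sums from 87.9 to 216 FPKM in high and from 47.3 to 189.8 FPKM in low ovaries. FST stands in both the granulosa and the cumulus list. The part of these cells in the levels of the oocyte genes was not tested. No library was a copy of another; Pearson's r between libraries over tested transcripts ran from 0.899 to 0.960.

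Among genes with a symbol, those most like the trio by mean r were spread over many functions. The comparison covered 1333 transcripts of 1173 genes with a mean of at least 5 FPKM. By mean r over 6 libraries the first 10 were FAM120B (0.90), PACRGL (0.90), DRAXIN (0.898), TBPL2 (0.898), MACC1 (0.896), SUCNR1 (0.89), IRAG2 (0.89), PRCP (0.89), FAM204A (0.89) and PLAU (0.89). TBPL2 belongs to the TATA-binding protein family and serves transcription in growing mouse oocytes. Its transcript XM_013108408.1 had 11.9, 11.7 and 9.04 FPKM in the high ovaries, against 15.8, 11.9 and 6.87 FPKM in the low ovaries. DRAXIN, an axon guidance factor, had 26.4, 24.4 and 20.8 FPKM in the high ovaries, against 52.3, 37.8 and 11.1 FPKM in the low ovaries. PLAU is the urokinase gene, SUCNR1 a receptor for succinate and PRCP a carboxypeptidase. Low 3 was the lowest library for all 10 (29.2% of all tested transcripts) and low 1 the highest (26.9% of all). These extremes follow largely from choosing the 10 by their r with the trio.

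The genes most like each member alone were different ones, with PLAU, MACC1 and TBPL2 also among the 10. For GDF9 they were RAB9B (r = 0.97), TNFRSF11B (0.97), SLC16A1 (0.97), MED26 (0.96) and UBTD2 (0.95). RAB9B, a small GTPase, had 16.1, 16.6 and 14.5 FPKM in the high ovaries, against 28.7, 30.9 and 8.98 FPKM in the low ovaries, and SLC16A1 is a lactate transporter. For ZP2 they were HAO1 (0.98), TBPL2 through a second and more abundant transcript, XM_013108407.1 (0.98), RNF32 (0.97), PLAU (0.97) and MACC1 (0.97). That TBPL2 transcript had 95.9, 61.4 and 63.2 FPKM in the high ovaries, against 100.9, 63.3 and 34.2 FPKM in the low ovaries. For ZAR1L they were LRRC8B (0.99), CA7 (0.99), OMA1 (0.99), NMNAT3 (0.99) and PAPOLG (0.98). PAPOLG, a poly(A) polymerase, had 111, 113 and 87.1 FPKM in the high ovaries, against 159, 99.6 and 61.6 FPKM in the low ovaries, and CA7 is a carbonic anhydrase. Over the 6 libraries r was at least 0.9 with GDF9 for 11 of the 1333 transcripts, with ZP2 for 63 and with ZAR1L for 104.

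Of 7 genes that neighbour or overlap the members, 4 had transcripts in the tables, and 3 of these stayed under 1 FPKM in every library; the others are not analysed here. In the RefSeq gene table of the Pekin duck assembly IASCAAS_PekinDuck_T2T, used for names and neighbours alone, ZP2 and ZAR1L overlap no other annotated gene. Beside ZP2, ANKS4B, which codes for a scaffold protein, was at no more than 0.656 FPKM in any library, and FRY, beside ZAR1L, stayed at or under 0.352 FPKM. GDF9 overlaps 1 other gene, AFF4, whose level is not analysed here. The labels name a stranded kit but not whether counting used strand, so reads from the overlap could have been credited to either gene. SHROOM1, beside GDF9, had 2.09, 2.45 and 1.99 FPKM in the high ovaries, against 6.37, 2.50 and 1.25 FPKM in the low ovaries.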

How the data were processed

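Ovary RNA was made into 6 stranded Illumina TruSeq mRNA libraries (3 high, 3 low) after Trizol extraction, per the labels' protocols. Bowtie2 2.0.6 and TopHat2 2.0.9 are named in the submitters' processing notes; no source used here gives the abundance program, genome build or annotation. The deposited tables hold 1 value for each transcript and name no unit; the authors' values were read as FPKM because they are fractional and sum to between 569606 and 639135 per library. Values under 1 FPKM were searched for whole-read steps against high 1: the fullest log2 bin (0.02 wide) held at most 1.10% of 6632 transcripts, so no reads were recovered and depth is unknown.

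Symbols came from the RefSeq gene table of the Pekin duck assembly, matched by accession without version (5 match with it): 4636 transcripts matched, 3452 with a symbol. Statements on named genes other than the members cover 2188 of 19790 tested transcripts (11.1%). Transcripts that reached 1 FPKM in 3 or more libraries were compared, high minus low, with limma-trend (limma 3.58.1, R 4.3.3) on log2(FPKM + 1), with group as the only term and Benjamini-Hochberg adjustment at 0.05. Correlations and ratios were tested by exact permutation over 720 pairings and 20 labelings (Python 3.11.15). The fits were tested on simulated data with changes far larger than those of the members. That test therefore cannot tell whether differences of the members' size would be found. Alternatives were pseudocounts of 0.1 and 0.01, no filter or 5 FPKM, equal sums, median centring, quantile normalization, array weights and each library left out.

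Members, gene lists and the rules were chosen with earlier results of these data known. Named genes were the members and all tested genes of the oocyte lists (the most abundant tested transcript of each). The 10 genes with a symbol and at least 5 FPKM most like the trio, and the 5 most like each member, were named too. From the other lists a few genes with the smallest p were to be named. The text did not keep to this rule, and the genes named were not always those with the smallest p. In the leukocyte list the smallest were those of RGS1 and EPSTI1, with log2 differences of 1.16 and 0.84. Limma called neither (adjusted p = 0.451 and 0.9998, unadjusted p = 0.00018 and 0.029). These 2 of the 9 tested leukocyte genes had groups that did not overlap (8.54% of all tested transcripts). With array weights limma called 3 of the 9, RGS1, SPI1 and EPSTI1 (11.6% of all). For marker lists the text gives sums. Genes of these lists without a matched name were not analysed here. One gene of the oocyte lists is not reported here and is left out of their counts.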

Additional observations from a re-analysis of the deposited data

How the results depend on the processing

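No member was called in any fit on equal weights, and array weights called GDF9 at -0.49. The log2 difference of GDF9 kept its sign in all settings, between -0.42 and -0.046 with a library left out. ZP2 turned to -0.091 with quantile normalization and -0.022 with array weights, and ran from -0.28 to 0.48 with a library left out. ZAR1L turned to -0.075 with equal sums and -0.041 with quantile normalization, and ran from -0.24 to 0.29. The count of transcripts called was 1, against 0 with a pseudocount of 0.01 or no filter, 2292 with array weights, and 0 to 2 with a library left out. The ratio difference of ZP2 over ZAR1L ran from -0.091 to 0.24 with a library left out; those of GDF9 over ZP2 and over ZAR1L stayed below 0. All Pearson correlations stayed positive, with an adjusted exact permutation p of 0.075 or more. The cause of these changes was not tested. Of 93 other transcripts followed, 60 changed direction in some setting, 13 were called with array weights and 0 in any other setting. No paired analysis was possible because the labels number no libraries alike across the groups. Read depth is unknown, so precision rests on 3 libraries a group.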

Other observations

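Some genes had the opposite order of libraries. By a rule added after the data were examined, the 10 genes with a symbol, at least 5 FPKM and the lowest mean r with the trio were TWIST2, NR1H3, SOD3, MEOX2, HOXC8, EEF1A2, DENND2A, TAP2, RSPO3 and MAMLD1, with a mean r between -0.88 and -0.85. RSPO3, which enhances Wnt signalling, had 53.1, 75.4 and 67.5 FPKM in high 1, 2 and 3, against 34.6, 40.9 and 104 FPKM in low 1, 2 and 3. MEOX2, a homeobox gene of mesoderm, had 14.6, 16.1 and 20.7 FPKM in the high ovaries, against 8.51, 17.2 and 35.6 FPKM in the low ovaries. SOD3, the extracellular superoxide dismutase, had 24.1, 27.7 and 33.7 FPKM in the high ovaries, against 19.9, 25.9 and 37.5 FPKM in the low ovaries. NR1H3, a nuclear receptor for oxysterols, had 16.3, 16.0 and 18.7 FPKM in the high ovaries, against 12.5, 13.96 and 20.7 FPKM in the low ovaries. Low 3 was the highest library for all 10, and low 1 the lowest for all but EEF1A2, which was lowest in low 2. These extremes follow largely from choosing the 10 by their low r with the trio. None of the 10 genes was called between high and low layers in any fit.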
